A study of Homo sapiens with 6 samples.

Results

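A set of 9 known targets of the transcription factor p53 was followed in HO-1-N-1 cells, an established line of human oral squamous cell carcinoma. They are the rows named MDM2, CCNG1, PLK2, GDF15, FAS, SESN1, RRM2B, TP53INP1 and ZMAT3 among 21462 genes of a gene-level RNA-seq table. The 9 genes were chosen by name, with earlier results of these data known. All 9 passed the filter on low counts, as did 12351 genes in all. Cells received an siRNA against Sam68, the STAR-family RNA-binding protein encoded by KHDRBS1, or a control siRNA, both by lipid transfection, and poly(A) RNA was sequenced. The Sam68 siRNA group has 3 libraries, numbered 1, 2 and 3, and the control siRNA group has 3, numbered 1, 3 and 5; values are given in that order throughout. All 6 libraries come from this 1 cell line, which carries no further modification in the labels. The labels name no siRNA sequence, harvest time or p53 status, and leave unstated whether each library was a culture of its own. The p-values therefore cover the spread among these 6 libraries, and that spread may be technical.

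p53 binds DNA as a tetramer at response elements made of a pair of similar palindromic elements, and raises transcription of genes for cell cycle arrest, repair, apoptosis and metabolism. Its amount is set mainly at the protein level: MDM2, itself a p53 target, marks p53 for degradation, and damage signals break that loop. Many p53 targets also answer to p63, to ATF4 or to growth factor signals. The libraries measured mRNA, so neither p53 protein nor its activity was measured.

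The p53 response element, the feature that the pathway's genes share, was looked for near the starts of the members. The search window ran from 250 bases before to 50 bases after each RefSeq start site (GRCh38.p14). The element has 20 bases, namely 2 copies of a 10-base unit of 3 purines, C, A or T, A or T, G and 3 pyrimidines. A match could have up to 3 mismatches but had to keep the C and the G of both units, and because the element is palindromic 1 pass covers both strands. Of the 7 members with a window, 4 held a match, namely FAS, GDF15, MDM2 and SESN1. CCNG1, PLK2 and ZMAT3 had none in these windows, which says nothing about elements elsewhere in those genes. Among all genes with a window, 1.37% held such a match, as did 20.6% of 34 other known p53 targets. The matches are printed in the gene's own direction, with the 20-base element in capitals.
FAS: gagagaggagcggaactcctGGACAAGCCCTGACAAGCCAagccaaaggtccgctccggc
GDF15: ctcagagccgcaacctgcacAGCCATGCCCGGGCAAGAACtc
MDM2: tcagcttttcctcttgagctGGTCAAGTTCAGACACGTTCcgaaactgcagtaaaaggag
SESN1: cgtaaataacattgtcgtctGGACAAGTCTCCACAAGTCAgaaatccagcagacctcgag
The FAS element lies at chr10:88991309-88991328 on the plus strand, in intron 1 of the transcript used, and has 2 mismatches. The GDF15 element lies at chr19:18386186-18386205 on the plus strand, in exon 1, with 3 mismatches. The MDM2 element at chr12:68808923-68808942, plus strand, starts 94 bases before an inner start site of the gene and has 2 mismatches. The SESN1 element at chr6:109009018-109009037, minus strand, lies in intron 1 of the transcript used and has 3 mismatches. These are matches of letters and not measured binding sites. By their change with Sam68 siRNA, given next, FAS, GDF15 and SESN1 rose and MDM2 was not called.

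The 6 libraries held 16099488 to 17336651 counts, and counts were tested with edgeR's quasi-likelihood test, adjusted over all 12351 genes by Benjamini-Hochberg. A gene is said to rise or fall where its adjusted p lay under 0.05. KHDRBS1, the targeted gene, had 28.9, 32.9 and 31.4 TPM (length-scaled transcript levels, as deposited) in Sam68 siRNA cells, against 248, 227.5 and 189.5 TPM in control cells, a 7.15-fold fall (log2 fold change -2.84 ± 0.09 SE, adjusted p 1.56e-08). Squamous markers were high, with 8 of 8 tested and a summed level of 11530 to 11940 TPM in Sam68 siRNA cells and 10930 to 11260 TPM in control cells. Of these 2 rose, 1 fell and 5 were not called (37.5% called, against 19.1% of all genes tested). KRT5, a basal keratin, rose (log2 fold change 0.20), as did TP63 (0.33), and DSG3, a desmosomal cadherin, fell (-0.65). KRT5 was not called by edgeR with a block for library number (adjusted p 0.135). In every fit with this block, only libraries whose number occurs in both groups inform the group difference. Each of the remaining libraries is taken up by a block of its own. Summed markers of other cell types were near 0: 3.42 to 4.86 against 3.81 to 8.74 TPM for fibroblasts, 1.18 to 1.49 against 1.24 to 1.80 TPM for endothelium and 6.66 to 8.37 against 5.18 to 6.11 TPM for leukocytes, Sam68 siRNA cells first. Only 2 of 6 fibroblast, 1 of 4 endothelial and 1 of 5 leukocyte markers were tested. None was called, which is too few genes to set against the 19.1% called of all genes. CD14 made up most of the leukocyte sum, at 6.56, 7.48 and 8.24 TPM in Sam68 siRNA cells and 6.11, 4.97 and 5.65 TPM in control cells. KDR was at 0 in every library. Control library 5 stood apart on the second principal component, at 22.4 against -18.1 and -13.1 for the other controls and 1.59 to 4.06 for the Sam68 siRNA libraries. Mitochondrially encoded genes took 2.27% of its counts, against 0.158% and 0.216% in the other controls and 0.300% to 0.671% in the Sam68 siRNA libraries. In bulk RNA, a lower level in every cell and fewer cells with the transcript cannot be told apart.

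The 9 targets did not move one way. GDF15, FAS and SESN1 rose, CCNG1 and PLK2 fell, and MDM2, RRM2B, TP53INP1 and ZMAT3 were not called. Thus 5 of 9 were called (55.6%), against 19.1% of all genes tested. By direction, 3 of 9 rose against 9.33% of all genes, and 2 of 9 fell against 9.76%. The median log2 fold change of the 9 was 0.02, beside -0.0048 over all tested genes, 0.36 over the 1152 that rose and -0.37 over the 1206 that fell. In 7 of 9 the libraries of the groups did not overlap in CPM, counts scaled to library size, which held for 38.0% of all genes tested. Given how the 9 genes were chosen, these shares describe the list and carry no test.

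**Figure D1:**
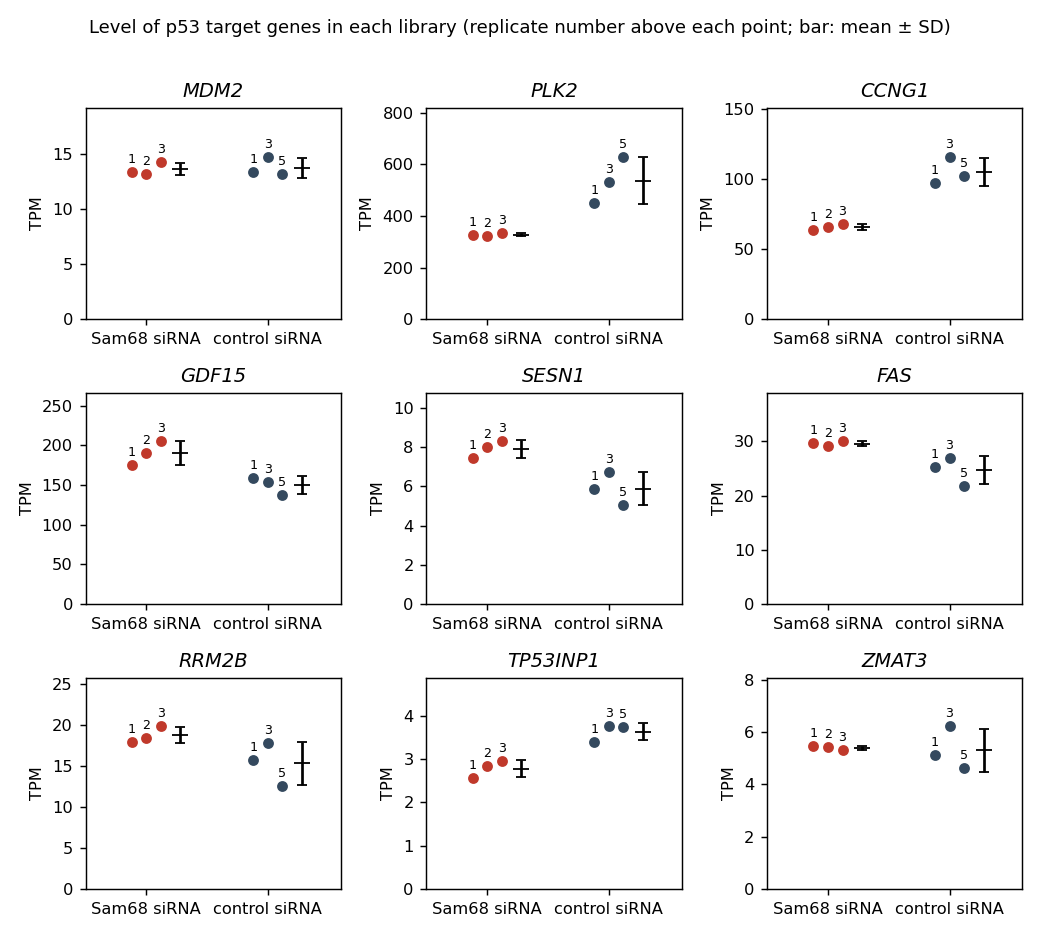
Level of each of the 9 target genes in TPM, as deposited by the authors, 1 point per library with its number, Sam68 siRNA (red) left of control siRNA (blue), and the mean ± SD of 3 libraries beside them. The PLK2 and CCNG1 points of Sam68 siRNA cells lie below every control, those of GDF15, SESN1 and FAS lie above, and MDM2 and ZMAT3 overlap.

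Among the members that act back on p53, MDM2 was not called and CCNG1 fell. PLK2, a polo-like kinase gene, also fell. MDM2 (ENSG00000135679, chr12:68808177-68850686, plus strand), the ubiquitin ligase that keeps p53 low, had 13.4, 13.2 and 14.3 TPM in Sam68 siRNA cells, against 13.3, 14.8 and 13.2 TPM in control cells. The groups overlapped, and the means were 13.6 ± 0.577 and 13.8 ± 0.885 TPM (SD, n = 3 each). The log2 fold change was -0.02 ± 0.07 SE (adjusted p 0.876), and its 95% interval of -0.17 to 0.13 spans changes between 0.891-fold and 1.09-fold. CPM, a carboxypeptidase gene that overlaps MDM2 on the opposite strand, had 4.03% of its counts.

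CCNG1 (ENSG00000113328, chr5:163437569-163446151, plus strand) encodes cyclin G1, which brings protein phosphatase 2A to MDM2 and so takes part in the p53 feedback loop. It had 63.8, 66.2 and 68.3 TPM in Sam68 siRNA cells, against 97.5, 116 and 102 TPM in control cells. Every Sam68 siRNA library lay below every control library, with means of 66.1 ± 2.28 and 105 ± 9.75 TPM (SD, n = 3 each). CCNG1 fell 1.60-fold (log2 fold change -0.68 ± 0.08 SE, adjusted p 0.000206), on 903 to 1611 counts per library. Its fall was called in each of the 15 alternative analyses, with log2 fold changes of -0.74 to -0.62.

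PLK2 (ENSG00000145632, chr5:58453982-58460139, minus strand) encodes a polo-like kinase that p53 and growth factor signals both induce. It was the most abundant of the 9, with 325, 322 and 334 TPM in Sam68 siRNA cells, against 448, 531 and 630 TPM in control cells. The Sam68 siRNA libraries lay close together and below all controls, which spread widely, and control library 5 was the highest. PLK2 fell 1.65-fold (log2 fold change -0.73 ± 0.13 SE, adjusted p 0.00901). Without control library 5 the log2 fold change was -0.56 and the adjusted p 1.98e-05.

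Immediate early genes, which growth factor and stress signals switch on, were also high in control library 5. Their mean log2 CPM, taken relative to each gene's mean of 6 libraries, was -0.32, -0.31 and -0.25 in Sam68 siRNA cells, against -0.24, -0.13 and 1.25 in control cells. Of 18 tested, 1 rose and 2 fell (16.7% called, against 19.1% of all genes tested), with a median log2 fold change of -0.52. That median includes the high values of control library 5 and is not given without it. CCN1, which encodes a secreted matrix protein, fell (log2 fold change -1.24), as did IER5 (-0.32), while SRF, the serum response factor itself, rose (0.27; adjusted p 0.0641 and 0.0638 without Sam68 siRNA library 1 or 2). PLK2 deviated from its own mean by -0.38, -0.35 and -0.33 in Sam68 siRNA cells and by 0.08, 0.31 and 0.66 in control cells, so that control library 5 was the top library for both. With that library left out, the fall of PLK2 was still called, as given above. The list's mean in the other controls, -0.24 and -0.13, also lay above the Sam68 siRNA libraries, for control library 1 only narrowly. Leaving out control library 5 was no test of these signals. The part of these signals in the PLK2 difference was not tested.

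GDF15 and FAS, a secreted ligand and a death receptor, were higher in Sam68 siRNA cells. GDF15 (ENSG00000130513, chr19:18374731-18389176, plus strand) encodes a stress-induced cytokine of the TGF-beta superfamily. It had 175, 191 and 205 TPM in Sam68 siRNA cells, against 159, 154 and 137 TPM in control cells, with no overlap. The means were 190.1 ± 15.1 and 150.0 ± 11.5 TPM (SD, n = 3 each). GDF15 rose 1.26-fold (log2 fold change 0.34 ± 0.07 SE, adjusted p 0.00704), and leaving out any 1 library kept it called, with adjusted p of 0.00459 to 0.0498. It was not called by limma on log2(TPM + 1) (adjusted p 0.0539). Nor was it called by edgeR with a block for library number (log2 fold change 0.29, adjusted p 0.0991), a fit that compares only libraries whose number occurs in both groups.

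GDF15 is also a known target of ATF4, the transcription factor of the amino acid response. Of 16 ATF4 response genes listed, 10 rose, 0 fell and 6 were not called (62.5% called, against 19.1% of all genes tested), with a median log2 fold change of 0.44. SLC7A5, an amino acid transporter, rose by 0.53 on the log2 scale, the asparagine synthetase gene ASNS by 0.60 and PCK2, a mitochondrial enzyme of gluconeogenesis, by 0.62. The list's mean deviation in log2 CPM was 0.08, 0.15 and 0.34 in Sam68 siRNA cells, against -0.10, -0.18 and -0.29 in control cells. GDF15 deviated by 0.03, 0.20 and 0.27 in Sam68 siRNA cells, against -0.11, -0.17 and -0.23 in control cells. The order of the 6 libraries was thus the same for GDF15 and the list. The rising order of Sam68 siRNA libraries 1, 2 and 3 was shared by every other member except ZMAT3, also by CCNG1 and PLK2, which fell. The part of the ATF4 response in the rise of GDF15 was not tested.

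**Figure D2:**
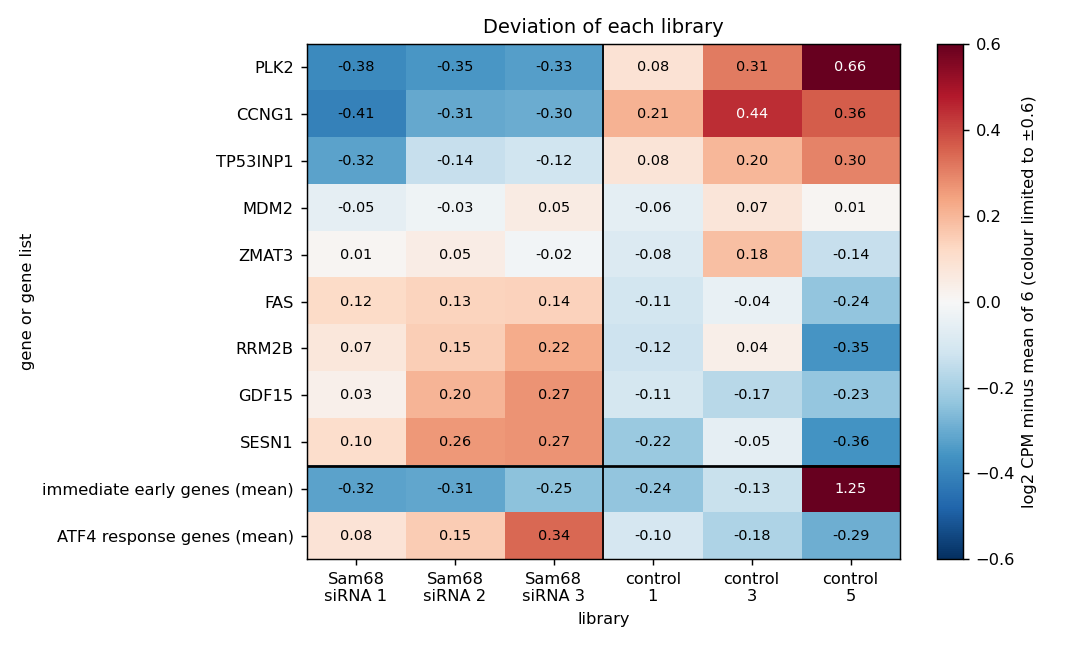
Log2 CPM of each target gene minus its mean over the 6 libraries (rows) in each library (columns, Sam68 siRNA left of control siRNA), with the mean deviation of the immediate early and ATF4 response lists below. Control library 5 has the highest values of PLK2 (0.66) and of the immediate early list (1.25). Sam68 siRNA library 3 has the highest of GDF15 (0.27) and of the ATF4 list (0.34), and also of FAS, SESN1 and RRM2B.

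FAS (ENSG00000026103, chr10:88990531-89017059, plus strand) encodes the cell surface receptor for FAS ligand, which starts apoptosis through FADD and caspase 8. It had 29.7, 29.1 and 30.0 TPM in Sam68 siRNA cells, against 25.3, 26.9 and 21.8 TPM in control cells. The Sam68 siRNA libraries were nearly equal and above every control. FAS rose 1.20-fold (log2 fold change 0.26 ± 0.07 SE, adjusted p 0.0311), but the adjusted p was 0.0736, 0.104 and 0.114 without Sam68 siRNA library 1, 2 or 3, and 0.0511 and 0.0658 without control library 1 or 5. The call was also lost by edgeR with a block for library number (adjusted p 0.188). Limma on log2(TPM + 1) and log2(TPM + 0.1) did not call FAS either (adjusted p 0.116 and 0.11). FAS overlaps ACTA2 on the opposite strand, whose counts equalled 21.8% of those of FAS, and since the strand setting of the counting is not given, the level of FAS is uncertain to that extent. The ligand gene FASLG had no count in any library.

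SESN1 and RRM2B serve metabolism under stress; SESN1 rose and RRM2B was not called. SESN1 (ENSG00000080546, chr6:108986437-109094819, minus strand) encodes sestrin 1, a leucine-responsive inhibitor of mTORC1 with a role in antioxidant defence. It had 7.43, 8.03 and 8.29 TPM in Sam68 siRNA cells, against 5.89, 6.73 and 5.03 TPM in control cells, with no overlap. SESN1 rose 1.34-fold (log2 fold change 0.42 ± 0.12 SE, adjusted p 0.0296) on 113 to 190 counts per library. That call was lost without Sam68 siRNA library 2 or 3 or control library 1 or 5 (adjusted p 0.111, 0.114, 0.0639 and 0.0534), and by DESeq2 (0.0704). It was also lost by edgeR with a block for library number (adjusted p 0.166). Limma on log2(TPM + 1) and log2(TPM + 0.1) did not call SESN1 either (adjusted p 0.0821 and 0.0766).

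RRM2B (ENSG00000048392, chr8:102204502-102238961, minus strand) encodes the p53-inducible small subunit of ribonucleotide reductase, which makes deoxynucleotides outside S phase. It had 18.0, 18.4 and 19.9 TPM in Sam68 siRNA cells, against 15.7, 17.8 and 12.6 TPM in control cells. The groups did not overlap, though the lowest Sam68 siRNA library and the highest control lay close, at 17.98 and 17.77 TPM. The log2 fold change of 0.29 ± 0.10 SE was not called (adjusted p 0.0652). Without control library 3, the highest control, it was 0.38 and was called (adjusted p 0.0315). Without control library 5, the lowest control and the one that stood apart, it was 0.19 (adjusted p 0.138).

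TP53INP1 and ZMAT3, both of low abundance, were not called. TP53INP1 (ENSG00000164938, chr8:94925972-94949378, minus strand) encodes a nuclear protein that promotes p53-dependent apoptosis and takes part in autophagy. It had 2.57, 2.83 and 2.95 TPM in Sam68 siRNA cells, against 3.40, 3.76 and 3.74 TPM in control cells. Each Sam68 siRNA library lay below each control, at log2 fold change -0.39 ± 0.13 SE, which did not pass the threshold (adjusted p 0.0614) on 83 to 120 counts per library. NDUFAF6 overlaps TP53INP1 on the opposite strand and had 240% of its counts, so this level is uncertain.

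ZMAT3 (ENSG00000172667, chr3:178960121-179072215, minus strand) encodes a zinc finger RNA-binding protein that regulates splicing and mRNA stability. It had 5.46, 5.43 and 5.33 TPM in Sam68 siRNA cells, against 5.12, 6.23 and 4.62 TPM in control cells. The Sam68 siRNA libraries fell within the range of the controls. The log2 fold change was 0.02 ± 0.10 SE (adjusted p 0.911), with a 95% interval of 0.876-fold to 1.17-fold.

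A two-sided exact permutation test of the CPM values gave p = 0.1 for each of the 7 genes whose groups did not overlap, which is the smallest p that 3 libraries against 3 allow. The same exact permutation test gave p = 0.8 for MDM2 and p = 1.0 for ZMAT3. In the authors' deposited table, whose test is not named, the log2 fold changes of CCNG1, PLK2 and GDF15 were -0.674, -0.723 and 0.341, with FDR of 2.09e-06, 0.000622 and 5.45e-05. The authors' deposited table put FAS at FDR 0.093, SESN1 at 0.059, RRM2B at 0.0648 and TP53INP1 at 0.122, so that FAS and SESN1 lay above 0.05 there and below it in the edgeR fit.

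**Figure D3:**
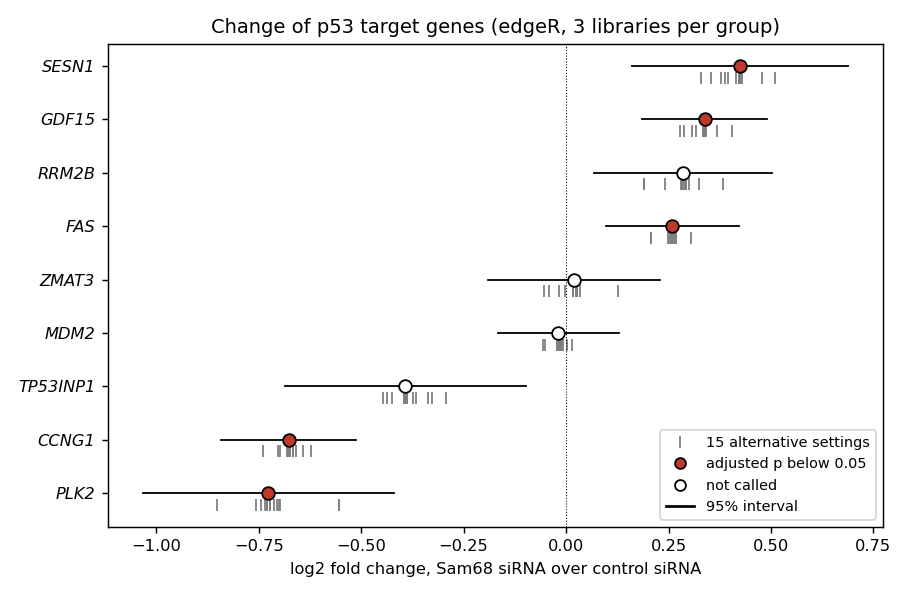
Log2 fold change of each target gene, Sam68 siRNA over control siRNA, from edgeR (circles, filled where the adjusted p is below 0.05) with its 95% interval (lines), and the values of 15 alternative analyses (ticks). PLK2 (-0.73) and CCNG1 (-0.68) lie at the low end, SESN1 (0.42) and GDF15 (0.34) at the high end, and the ticks of MDM2 and ZMAT3 fall on both sides of 0.

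Levels per length of transcript ran in the same order in both groups: PLK2, GDF15, CCNG1, FAS, RRM2B, MDM2, SESN1, ZMAT3 and TP53INP1. In Sam68 siRNA cells no neighbours in that order overlapped, while in control cells RRM2B overlapped MDM2 and SESN1 overlapped ZMAT3. PLK2 stood at 327 TPM and TP53INP1 at 2.78 TPM in Sam68 siRNA cells, and at 536 and 3.63 TPM in control cells.

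For each called member, the gene of most similar profile was found by the root mean square distance between mean-centred log2 CPM values over the 6 libraries, among 10490 genes averaging 5 CPM or more. CCNG1 was nearest to PARVA, the alpha-parvin gene (distance 0.0388, log2 fold change of PARVA -0.67). PLK2 was nearest to KYNU, which encodes kynureninase (0.0542, -0.68), and GDF15 to TRAF5, an adaptor of the TNF receptor family (0.0222, 0.36). In the edgeR fit KYNU had an adjusted p of 0.0457, and TRAF5 was not called (adjusted p 0.0542). FAS was nearest to COA1 (0.0101, 0.26) and SESN1 to SRGAP2C (0.0242, 0.40), a human duplicate gene whose reads may be shared with its copies. A small distance and a like fold change follow from searching so many genes, so these neighbours carry no test.

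A further 42 known p53 targets were listed, of which 40 were tested and EDA2R and TNFRSF10C were not. Of these, 3 rose (DRAM1, RAP2B and DDB2), 7 fell (CDKN1A, PHLDA3, APAF1, GADD45A, TRIM22, RPS27L and CD82) and 30 were not called. The called share was 25.0%, against 19.1% of all genes tested, and the median log2 fold change was -0.01. The levels of TRIM22 and RPS27L are uncertain, since TRIM5 and LACTB overlap them on the opposite strand with 53.5% and 129% of their counts.

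DRAM1, a lysosomal membrane protein gene that links p53 to autophagy, had 22.7, 22.9 and 26.5 TPM in Sam68 siRNA cells, against 16.2, 16.5 and 11.3 TPM in control cells. The groups were well apart, and DRAM1 rose by 0.71 ± 0.12 SE on the log2 scale (adjusted p 0.00222). CDKN1A, the CDK inhibitor p21 and a classical arrest target, had 274, 259 and 267 TPM in Sam68 siRNA cells, against 326, 349 and 375 TPM in control cells. It lay below every control in all Sam68 siRNA libraries and fell 1.32-fold (log2 fold change -0.40 ± 0.07 SE, adjusted p 0.00304). PHLDA3, an inhibitor of AKT, averaged 75.5 ± 1.22 TPM in Sam68 siRNA cells and 91.0 ± 5.60 TPM in control cells (SD, n = 3 each; log2 fold change -0.27, adjusted p 0.00945). DRAM1, CDKN1A and PHLDA3 were called with any 1 library left out. PHLDA3 was not called by limma on log2(TPM + 1) (adjusted p 0.0528) or by edgeR with a block for library number (0.0669).

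RAP2B, a RAS-like GTPase gene, averaged 37.8 ± 1.43 TPM in Sam68 siRNA cells and 30.9 ± 2.53 TPM in control cells (SD, n = 3 each; log2 fold change 0.28, adjusted p 0.0141). APAF1, the scaffold of the apoptosome, averaged 8.72 ± 0.465 and 11.0 ± 1.37 TPM (-0.34, adjusted p 0.020), and GADD45A, a growth arrest gene, 151 ± 3.22 and 189.9 ± 18.4 TPM (-0.34, adjusted p 0.0234), Sam68 siRNA cells first. These 3 calls were lost when certain single libraries were left out. RAP2B had adjusted p of 0.0699, 0.0824 and 0.0573 without Sam68 siRNA library 2 or 3 or control library 3, and APAF1 had 0.0740, 0.0755 and 0.0752 without the same libraries. GADD45A had 0.0769, 0.0608, 0.0925 and 0.0524 without Sam68 siRNA library 1, 2 or 3 or control library 1. The proapoptotic genes BAX and BBC3 were not called, at log2 fold changes of -0.02 and 0.16 and adjusted p of 0.877 and 0.457; both were looked up after the values were seen.

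**Figure D4:**
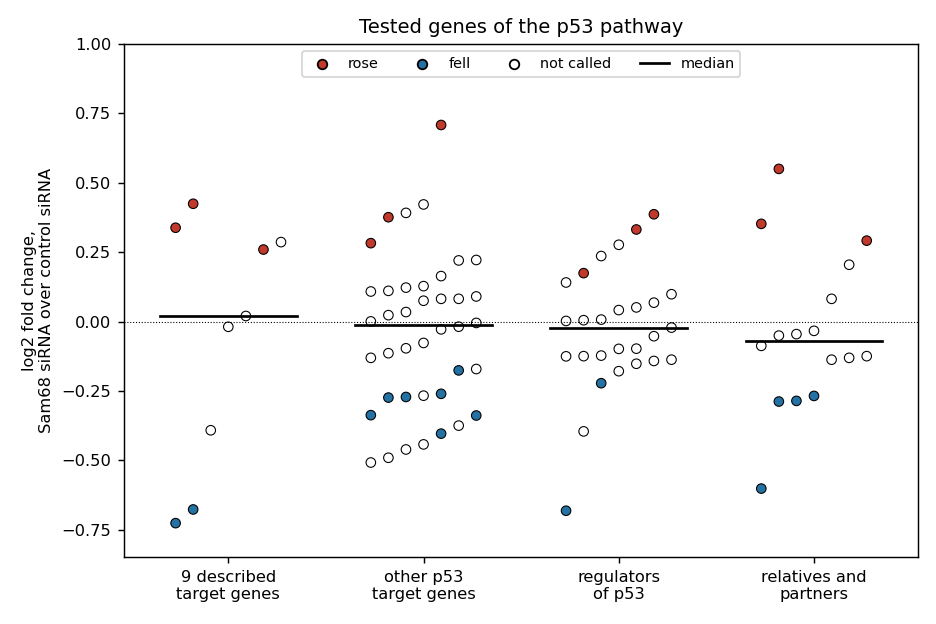
Log2 fold change, Sam68 siRNA over control siRNA, of every tested gene (points) in the 9 described targets, the 40 other p53 targets, the 27 regulators and relatives of p53 and the 16 relatives and partners, with the median of each as a bar. Red points rose, blue points fell and open points were not called; all 4 medians lie between -0.07 and 0.02.

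On the upstream side, 27 regulators and relatives of p53 were tested, of which 3 rose (KAT5, TP63 and RPL11) and 2 fell (HIPK2 and UBE4B). That is 18.5% called, against 19.1% of all genes, with a median log2 fold change of -0.02. TP63, the p53 relative that maintains basal squamous cells, averaged 43.3 ± 2.70 TPM in Sam68 siRNA cells and 34.3 ± 3.55 TPM in control cells (SD, n = 3 each; log2 fold change 0.33, adjusted p 0.0124, and 0.0726 without Sam68 siRNA library 3). Limma on log2(TPM + 1) and log2(TPM + 0.1) did not call TP63 (adjusted p 0.0701 and 0.0594). KAT5, the acetyltransferase TIP60, averaged 44.5 ± 1.65 and 33.9 ± 1.19 TPM (0.39, adjusted p 0.00503), but RNASEH2C on the opposite strand had 93.4% of its counts and the level is uncertain. HIPK2, a kinase that phosphorylates p53 for apoptosis, averaged 1.25 ± 0.195 and 1.99 ± 0.299 TPM (-0.68, adjusted p 0.00934, and 0.0544 without Sam68 siRNA library 2). The call of HIPK2 was also lost by edgeR with a block for library number (adjusted p 0.111). Limma on log2(TPM + 1) and log2(TPM + 0.1) gave adjusted p of 0.0823 and 0.0942. RPL11, a ribosomal protein that can bind MDM2, rose by 0.17 on the log2 scale (adjusted p 0.0331), with adjusted p of 0.109, 0.132, 0.104 and 0.0731 when Sam68 siRNA library 1, 2 or 3 or control library 3 was left out. UBE4B, a ubiquitin ligase that acts on p53 with MDM2, averaged 36.9 ± 2.70 TPM in Sam68 siRNA cells and 42.8 ± 0.699 TPM in control cells (SD, n = 3 each; log2 fold change -0.22, adjusted p 0.0339). Without Sam68 siRNA library 2 or 3 or control library 3 or 5 the adjusted p was 0.142, 0.110, 0.0754 and 0.0531. MDM4, the MDM2 partner that also restrains p53, was not called (-0.12, adjusted p 0.636) and was looked up after the values were seen.

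The relatives and partners of the members comprised 19 genes, of which FASLG, SESN3 and ZMAT1 were not tested. Of the 16 tested, 3 rose (PLK1, RRM2 and PLK4), 4 fell (TP53INP2, ZMAT2, CASP8 and CFLAR) and 9 were not called, 43.8% called against 19.1% of all genes. In the polo-like kinase family, the mitotic kinase gene PLK1 averaged 105 ± 1.26 TPM in Sam68 siRNA cells and 71.5 ± 10.4 TPM in control cells (SD, n = 3 each; log2 fold change 0.55, adjusted p 0.000932). PLK1 thus rose where PLK2 fell. In ribonucleotide reductase, RRM2, the S phase small subunit, averaged 90.3 ± 1.53 and 73.7 ± 10.2 TPM (0.29, adjusted p 0.0147), with adjusted p of 0.0615 when Sam68 siRNA library 2 was left out and 0.0629 when library 3 was. CCNG2, the closest relative of CCNG1, was looked up after the values were seen and was not called (-0.05, adjusted p 0.784).

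Downstream of FAS, CASP8, the initiator caspase, averaged 26.4 ± 1.49 TPM in Sam68 siRNA cells and 32.1 ± 3.87 TPM in control cells (SD, n = 3 each; log2 fold change -0.29, adjusted p 0.037). Leaving out Sam68 siRNA library 1, 2 or 3 or control library 3 gave adjusted p of 0.130, 0.055, 0.102 and 0.139. TP53INP2, an autophagy protein related to TP53INP1, averaged 19.0 ± 1.89 and 28.6 ± 4.06 TPM (-0.60, adjusted p 0.00603), though NCOA6 on the opposite strand had 171% of its counts. By edgeR with a block for library number, TP53INP2 was not called (adjusted p 0.0687). ZMAT2 averaged 163 ± 6.80 and 198.5 ± 19.4 TPM (-0.29, adjusted p 0.0186). Leaving out Sam68 siRNA library 1 or 3 gave adjusted p of 0.0613 and 0.0862, and HARS2, which overlaps it on the same strand, had 38.1% of its counts.

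In these libraries, genes with the 7-base stretch GCAGTAC in the 3' untranslated region rose in 30.0% of 563 cases, and genes with ACTGATT fell in 15.1% of 1654 cases, against 8.42% and 9.09% of genes without them. These letters were singled out in earlier work on the same libraries. GCAGTAC was found in 0 of the 9 members, against 4.68% of all genes searched. ACTGATT was present in 13.8% of all genes searched. It was found 3 times in ZMAT3 and 3 times in TP53INP1, neither of which was called, and in none of the 5 called members. The searched regions of ZMAT3 and TP53INP1 had 7794 and 4507 bases, against 241 to 1346 in the 5 called members. None of these shares and counts was adjusted for that length. A match is a description and not a site.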

How the data were processed

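Poly(A) RNA was sequenced in 6 libraries (hg38, per the submitters' processing notes); the sources used here do not give the aligner, the counter or whether it used strand. The deposited table holds, per the file headers, raw counts, RPKM values, TPM values and a signal headed CPM per library. The authors' deposited comparison gives a fold change (a signed score), a log2 fold change and p-values. Counts were tested with edgeR 4.0.16 in R 4.3.3 (filterByExpr with minimum count 10 and total 15, TMM, quasi-likelihood F-test, Benjamini-Hochberg over all genes, threshold 0.05). TPM gave levels. RPKM and the CPM signal entered no test. Total counts of 16099488 to 17336651 per library limit the precision of low genes.

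The members and gene lists were chosen with earlier results of these data known. Named genes were the 9 members, KHDRBS1, the called genes of smallest adjusted p in each list (up to 6 of the other targets, 5 of the regulators, 5 of the relatives, 3 of the rest) and the nearest profile of each called member. DDB2, TRIM22, RPS27L, CD82, PLK4 and CFLAR, beyond those limits, are named only as called. Their edgeR adjusted p ran from 0.0336 (TRIM22) to 0.0485 (CFLAR), and they were not followed singly under the alternatives. Some genes are not reported here, and the list of regulators was counted without them. The lists were other p53 targets, regulators and relatives of p53, relatives and partners, ATF4 response, immediate early genes and squamous, fibroblast, endothelial and leukocyte markers. Alternatives used other scalings and filters, DESeq2 1.42.0, limma 3.58.1 (voom on counts, and limma-trend on log2(TPM + 1) and log2(TPM + 0.1)), a replicate block and each library left out. The replicate block is the block for library number, in which only numbers found in both groups inform the group difference. Start site windows came from RefSeq (GRCh38.p14) and transcripts from GENCODE 29 (GRCh38).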

Additional observations from a re-analysis of the deposited data

How the results depend on the processing

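Of the gene values under 15 alternatives, 425 kept direction and side of the threshold, 78 lost their call, 1 gained one and 6 changed sign. Signs changed for MDM2, at -0.056 to 0.014 with 1 library left out, and ZMAT3, at -0.042 to 0.13 with 1 left out and -0.055 with the replicate block. Counts called (rose, fell) were, with the replicate block, 0 members risen, 1 and 3 other targets, 2 and 0 regulators, 1 and 2 relatives, 503 and 543 of all genes. By limma on log2(TPM + 1) they were 0 members risen, 1 and 1 other targets, 1 and 0 regulators, 1 and 1 relatives, 502 and 554 of all genes. On log2(TPM + 0.1) they were 1 member risen, 1 and 3 other targets, 1 and 0 regulators, 1 and 1 relatives, 555 and 606 of all genes. With 1 library left out, members risen ranged over 1 to 4, other targets 1 to 3 risen and 2 to 8 fallen, regulators 1 to 4 and 0 to 4, relatives 1 to 4 and 1 to 4, all genes 533 to 1272 and 579 to 1394. The 2 fallen members, CCNG1 and PLK2, were called under each of the 15 alternatives. Only the numbers 1 and 3 occur in both groups, so the replicate block takes its group difference from those libraries alone. Whether its lost calls come from the block or from the smaller number of libraries was not tested. Deviations of same-numbered libraries correlated at -0.066 and 0.077. Pairs with different numbers gave -0.115 to 0.0981, so same-numbered libraries were no more alike by this measure. With so few libraries, and 1 control library that stood apart, these values cannot decide whether same-numbered libraries shared a culture or a batch. Fits that leave a group with 2 libraries take its spread from the model over both groups. Counts under 200 per library for SESN1 and TP53INP1 limit their precision; the cause of lost calls was not tested.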
